A study of Mus musculus with 10 samples.

Results

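XMP, a progenitor population sorted from the bone marrow of mice that lack Runx1 in blood cells, were compared with granulocyte-monocyte progenitors (GMP) of the same genotype. The 4 libraries, 2 of XMP and 2 of Runx1-deleted GMP, were chosen by the names of their columns from the 10 of the series. The genes compared were those with at least 1 RPKM (reads scaled to the length of the gene and to the depth of the library) in at least 2 of these 4 libraries, 10532 of the 23240 in the table. XMP and GMP came from Runx1 fl/fl mice with a vav-Cre transgene, written Runx1Δ/Δ in the labels, so both groups carried the deletion. The vav promoter is active throughout the blood system, so the deletion was not restricted to the progenitors sorted. Both gates took cells that were negative for lineage markers and Sca-1, positive for Kit and CD16/32, and negative for CD41 and CD105. They differed in CD150, which XMP carried and GMP lacked. The series title leaves CD41 out of the XMP gate, whereas the sample descriptions list it as negative. The other 6 libraries, 2 each of GMP and megakaryocyte-erythroid progenitors (MEP) from Runx1+/+ mice with vav-Cre and of MEP from the Runx1-deleted mice, served for the shared estimate of spread and for levels set beside the comparison without a test. MEP were sorted as CD16/32- CD150+. The labels do not give the age, sex or number of animals behind a library, nor whether the 2 libraries of a group came from separate animals, so p-values measure the spread between libraries, which may be technical.

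GMP give rise to neutrophils, monocytes and related myeloid cells, and their transcripts are dominated by the serine proteases and peroxidase of neutrophil primary granules. Megakaryocytes are the large marrow cells that shed platelets. Their precursors switch on the glycoprotein receptors of the platelet surface, the cargo of the platelet granules and a program of GATA1, its cofactor FOG1 and ETS factors. Runx1 is a DNA-binding factor that works with Cbfb and is known as a regulator of both lineages. CD16/32 is the conventional marker of GMP among Kit-positive progenitors, and CD150 marks stem cells and progenitors with megakaryocyte and erythroid potential, so XMP combine surface markers that usually separate the lineages.

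Of the transcripts behind the gate, those of CD150 and CD16 differed between the groups and that of CD32 overlapped. Slamf1, which encodes CD150, measured 0.962 and 1.38 RPKM in replicates 1 and 2 of Runx1-deleted GMP and 30.9 in each XMP library; since CD150 defined the gates, this is a check of the sort and not a result. The CD16/32 antibody recognises the products of Fcgr3 (CD16) and Fcgr2b (CD32), and these transcripts behaved differently. Fcgr3 measured 58.1 and 61.3 RPKM in GMP but 2.12 and 1.65 in XMP, 31.8-fold lower by the ratio of means (log2 difference −4.40 ± 0.19 SE, adjusted p = 7.81e-08). Fcgr2b, the inhibitory receptor, measured 69.2 and 60.2 RPKM in GMP and 58.2 and 73.8 in XMP, so the groups overlapped (0.02 ± 0.20, adjusted p = 0.966). In CD16/32- MEP of the same genotype, Fcgr2b was at 7.29 and 9.13 RPKM and Fcgr3 at 0.752 and 0.576, so XMP overlapped GMP in the CD32 transcript and lay nearer MEP in the CD16 transcript. Fcer1g, the signalling chain that pairs with CD16, fell from 52.7 and 74.3 to 20.6 and 10.3 RPKM (adjusted p = 0.000396).

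Itga2b, which encodes CD41, stood at 84.4 and 71.6 RPKM in Runx1-deleted GMP and 652 and 682 in XMP, 8.55-fold higher, although both gates are labelled CD41-. Runx1-deleted MEP, also labelled CD41-, held 218 and 203 RPKM, so XMP had the highest Itga2b level of the 5 groups in both of its libraries. CD41 protein was not measured here. Cd34, a surface marker that GMP carry, fell from 209 and 223 to 20.2 and 15.2 RPKM (log2 difference −3.55 ± 0.19, adjusted p = 1.99e-07), close to the 20.5 and 17.9 of Runx1-deleted MEP. Ly6a, the gene of Sca-1, for which both gates were negative, was also called lower, from 8.97 and 10.5 to 2.22 and 1.27 RPKM (adjusted p = 0.000135). The transcripts of 2 other gated markers were not called. Kit stood at 96.2 and 95.2 RPKM in GMP and 84.9 and 102.9 in XMP (adjusted p = 0.954), and Eng, which encodes CD105, at 31.5 and 43.2 against 53.3 and 46.3 (adjusted p = 0.22). Runx1, the targeted gene, was read at 63.0 and 72.3 RPKM in GMP and 85.9 and 78.5 in XMP (adjusted p = 0.431), above the 26.9 to 28.5 RPKM of wild-type GMP. Such a level cannot show whether the deletion took place, because transcripts that lack the deleted part are still counted.

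**Figure D1:**
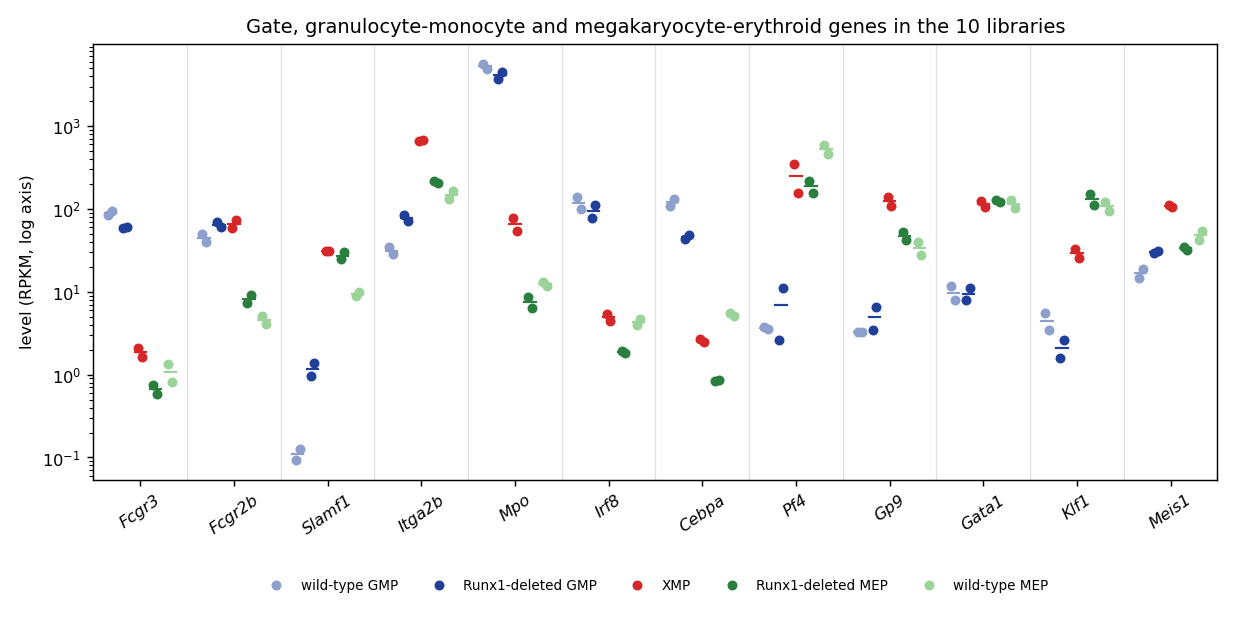
Level in RPKM (log axis) of 12 genes in each of the 10 libraries, with 1 point per library, a bar at the mean of the 2 libraries and 1 colour per group. XMP (red) lie nearer MEP than GMP for Fcgr3, Mpo, Gata1 and Pf4, among GMP for Fcgr2b, and above all other groups for Itga2b, Gp9 and Meis1.

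Of the 10532 genes, 1035 were higher in XMP (9.83% of those tested) and 1034 lower (9.82%) at an adjusted p under 0.05 in limma, and 2959 passed at an unadjusted p under 0.05. With 2 libraries a group, the groups did not overlap in 65.8% of all genes tested (6935) and in each of the 2069 called, so a lack of overlap adds nothing to a call. The median difference over all genes was 0.05 on the log2 scale. At least 4-fold differences were called for 151 higher and 207 lower genes, and at least 16-fold differences for 18 and 24. Log2 differences are of mean log2(RPKM + 1) and understate the change of genes near or below 1 RPKM. In the authors' deposited table, 869 of these genes had an FDR-corrected p under 0.05 in Baggerley's test of the same groups, and 753 of them were also called here, which is 86.7% of that list and 36.4% of the genes called here. Levels on the log2 scale correlated between single libraries of the 2 groups at 0.892 to 0.904, against 0.989 within XMP and 0.994 within GMP, as Pearson coefficients across genes.

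**Figure D2:**
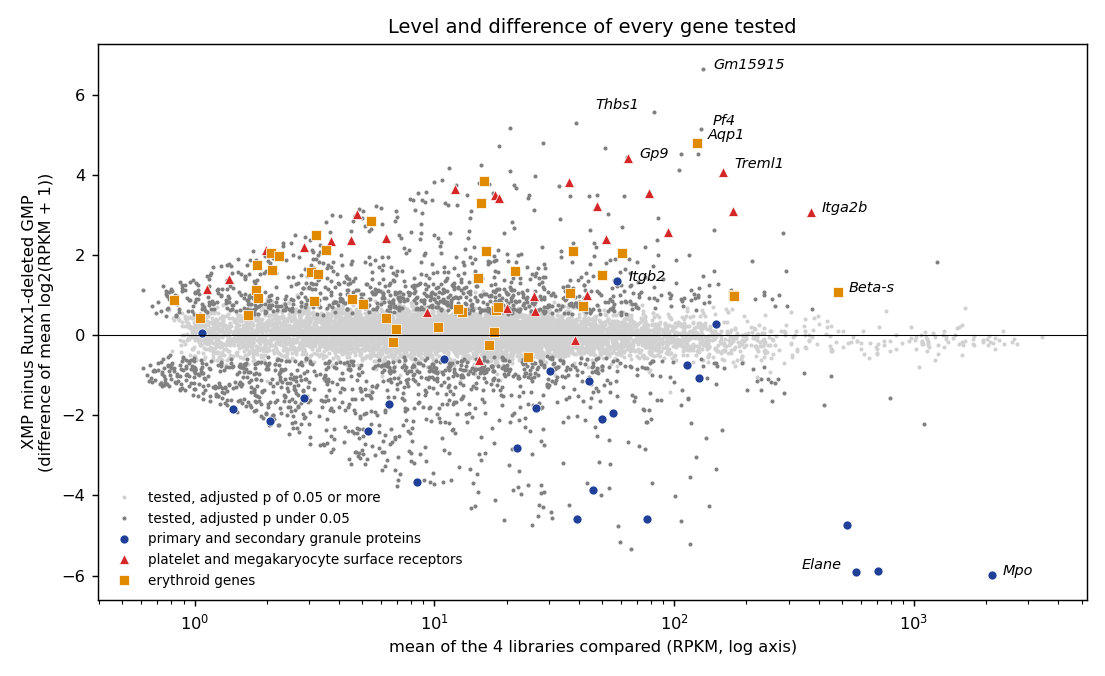
Mean level of each of the 10532 genes over the 4 libraries (RPKM, log axis) against the difference of XMP minus Runx1-deleted GMP in mean log2(RPKM + 1). Granule proteins (circles) reach −5.98 at the right, platelet and megakaryocyte receptors (triangles) reach 4.41, and erythroid genes (squares) lie above 0 with few exceptions.

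Most transcripts of neutrophil granules were lower in XMP. Of 31 granule genes listed, 25 passed the filter on low values, and of these 20 were lower in XMP, 1 higher and 4 not called, with a median log2 difference of −1.95. The same shares over all genes tested are the 9.82% and 9.83% given above. Mpo, the myeloperoxidase that defines the primary granule, measured 3743 and 4546 RPKM in GMP and 76.9 and 53.8 in XMP, 63.3-fold lower (−5.98 ± 0.23, adjusted p = 5.34e-08). Elane, neutrophil elastase, measured 1237 and 1023 RPKM in GMP against 18.0 and 17.4 in XMP. Ctsg, cathepsin G, measured 1502 and 1292 against 24.9 and 20.1, and Prtn3, proteinase 3, 1038 and 996 against a mean of 37.5. In XMP these 4 transcripts still stood above Runx1-deleted MEP, where Mpo was at 8.73 and 6.42 and Elane at 3.08 and 2.93 RPKM. In bulk RNA, fewer cells that make a transcript and less transcript per cell cannot be told apart, here or in the results that follow.

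The promoters of 3 of these proteases are shown because their transcripts were among the 15 largest falls, 63.8-fold for Elane, 62.2-fold for Ctsg and 27.2-fold for Prtn3 by the ratio of means. The sequences are the 250 bases before the RefSeq start on GRCm38.p6, read in the direction of the gene, at chr10:79886062-79886311 (plus strand) for Elane, chr10:79879417-79879666 (plus strand) for Prtn3 and chr14:56102575-56102824 (minus strand) for Ctsg. Capitals mark matches to GAGGAA, a core bound by the ETS factor PU.1, or to TGTGGT, the RUNX core, on either strand. Each holds a GAGGAA match, as do the 3 promoters of rising genes shown further below, and Ctsg also a RUNX match.
Elane: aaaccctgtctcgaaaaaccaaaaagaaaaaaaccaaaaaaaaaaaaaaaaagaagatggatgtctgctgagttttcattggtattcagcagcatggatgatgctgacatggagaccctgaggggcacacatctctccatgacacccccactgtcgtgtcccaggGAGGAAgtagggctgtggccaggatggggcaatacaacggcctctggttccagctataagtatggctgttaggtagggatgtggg
Prtn3: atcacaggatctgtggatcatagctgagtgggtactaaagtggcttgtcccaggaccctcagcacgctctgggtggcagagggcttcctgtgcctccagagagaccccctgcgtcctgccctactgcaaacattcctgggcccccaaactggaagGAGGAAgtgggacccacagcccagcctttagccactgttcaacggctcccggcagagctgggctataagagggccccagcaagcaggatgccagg
Ctsg: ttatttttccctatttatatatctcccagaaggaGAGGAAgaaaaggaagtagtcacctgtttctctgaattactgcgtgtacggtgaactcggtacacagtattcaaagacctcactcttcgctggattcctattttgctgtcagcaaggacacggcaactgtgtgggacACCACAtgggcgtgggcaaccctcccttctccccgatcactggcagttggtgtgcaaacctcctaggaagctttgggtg

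Of the 25 granule genes tested, 19 had a RefSeq promoter, and GAGGAA lay within 250 bases before to 50 after the start in 57.9% of them, against 26.7% of the 7658 promoters of all genes tested and 28.3% of all 27025 RefSeq promoters. TTGCNNAA, a form of the C/EBP motif, was present in 42.1% of granule promoters and 8.04% of those of all genes tested. Over the 738 promoters found for the 1034 genes lower in XMP, the shares were 34.4% for GAGGAA, 13.7% for TTGCNNAA and 16.4% for TGTGGT, the last against 12.3% of all genes tested. In granule promoters alone, TGTGGT was present in 31.6%. AGATAA, the motif of GATA factors, was present in 15.8% of granule promoters and 6.22% of those of all genes tested. A match of letters is a description of the sequence and shows no binding.

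Other granule genes fell from lower starting levels. Ms4a3, a transcript characteristic of GMP, fell from 178 and 120 to 5.55 and 4.74 RPKM, and Hp, haptoglobin, from 83.1 and 70.3 to 2.70 and 1.79. Ncf1, a subunit of the phagocyte oxidase, fell from 38.9 and 39.9 to 5.17 and 4.38 RPKM, and S100a8, a calcium-binding protein of the neutrophil cytosol, from 82.6 and 80.0 to 19.1 and 17.4. Cyba, the oxidase subunit shared with other tissues, was at 117 and 151 against 196 and 134 RPKM and was not called (adjusted p = 0.57). Itgb2, the beta-2 integrin common to all leukocytes, was the 1 member that rose, from 31.4 and 32.9 to 85.5 and 82.1 RPKM (1.35 ± 0.16, adjusted p = 9.41e-05). Genes of the secondary granules of mature neutrophils were low. Lcn2, lipocalin 2, fell from 13.02 and 7.98 to 2.27 and 2.53 RPKM (adjusted p = 0.000947), while Ngp lay between 0.711 and 1.54 in the 4 libraries and was not called. Ltf, lactoferrin, was at most 0.577 RPKM and did not pass the filter.

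Monocyte, macrophage and dendritic cell genes went the same way, with 21 of the 25 tested members (of 35 listed) lower in XMP, none higher (1 at an unadjusted p under 0.05 in limma, 0 by voom) and a median of −1.87. The lower share was 84.0%, against 9.82% of all genes tested. Csf1r, the receptor for macrophage colony-stimulating factor, measured 37.5 and 50.2 RPKM in GMP and 2.53 and 1.33 in XMP (−3.96 ± 0.27, adjusted p = 9.81e-07). F13a1, the coagulation factor XIII subunit found in monocytes and in megakaryocytes, was at 211 and 246 RPKM in GMP and 6.78 and 3.88 in XMP, with 1.53 and 1.19 in Runx1-deleted MEP. Tyrobp, the adaptor of many myeloid receptors, fell from 174 and 206 to 13.5 and 8.67 RPKM. All 3 were thus much lower in both XMP libraries. Among antigen-presentation genes, Cd74, the invariant chain, fell from 18.2 and 36.7 to 5.64 and 2.19 RPKM, and H2-Aa, a class II chain, from 9.57 and 18.3 to 3.24 and 0.966. Tgfbi, an adhesion protein of monocytes, was at 6.98 and 6.97 RPKM in GMP and 10.6 and 10.2 in XMP and was not called (adjusted p = 0.125).

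The factors that direct granulocyte and monocyte fates were lower too. Of 26 tested regulators and receptors of 30 listed, 20 were lower and 3 higher, with a median of −1.58. The higher share, 11.5%, was near the 9.83% of all genes tested. Cebpa, required for the formation of GMP, measured 43.7 and 49.1 RPKM in GMP and 2.69 and 2.44 in XMP (−3.73 ± 0.18, adjusted p = 1.1e-07). Cebpe, which drives later granulocyte maturation, measured 55.8 and 49.4 against 1.25 and 1.43, and Gfi1, a repressor needed for neutrophils, 28.7 and 27.3 against 0.551 and 0.353. Irf8, which directs monocyte and dendritic fates, measured 77.0 and 111 against 5.41 and 4.40. Each fell at least 18.1-fold by the ratio of means, and XMP stayed above Runx1-deleted MEP for all 4, as with Irf8 at 1.93 and 1.83 there. This did not hold against wild-type MEP, where Cebpa was higher than in XMP (5.54 and 5.11 RPKM) and Irf8 overlapped XMP (3.96 and 4.66). Cebpe and Gfi1 were lower in wild-type MEP than in XMP. Sfpi1, the table's name for the gene of PU.1, fell less, from 107 and 146 to 27.9 and 25.9 RPKM (−2.17 ± 0.21), and Flt3, a cytokine receptor of early progenitors, fell from 19.9 and 25.2 to 0.830 and 1.03.

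Cytokine receptors were lower but not absent in XMP. Csf3r, the receptor for granulocyte colony-stimulating factor, measured 62.6 and 64.6 RPKM in GMP and 17.4 and 22.3 in XMP (adjusted p = 0.000328), with 7.81 and 9.53 in Runx1-deleted MEP. Il6ra fell from 20.6 and 26.7 to 5.68 and 4.32 RPKM, and Il3ra from 34.3 and 37.0 to 9.46 and 9.84. Csf2rb, the chain shared by the receptors for interleukin-3, interleukin-5 and GM-CSF, was at 52.4 ± 3.44 RPKM in GMP against 26.6 ± 9.31 in XMP (SD, n = 2 libraries each; adjusted p = 0.00796), a call lost without GMP replicate 1 or XMP replicate 1, where the adjusted p reached 0.113. The 3 members that rose were Fli1, an ETS factor of megakaryocytes, at 8.11 and 7.42 against 23.9 and 22.7 RPKM, the Kruppel-like factor Klf2 at 0.381 and 0.872 against 2.01 and 1.53, and Cux1, a homeobox repressor, at 27.6 and 28.1 against 42.0 and 41.3. Klf2 lost its call without GMP replicate 1, without XMP replicate 1 and without the filter (adjusted p up to 0.219), and Cux1 in 10 of 24 alternatives, among them without any 1 of the 4 libraries (up to 0.236).

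Genes of mast cells, basophils and eosinophils were mostly lower, with 16 of 27 tested members (of 42 listed) lower and 5 higher and a median of −1.14. These shares were 59.3% and 18.5%, against 9.82% lower and 9.83% higher of all genes tested. Hdc, the histamine-forming enzyme, measured 120 and 108 RPKM in GMP and 3.48 and 3.04 in XMP, and Cpa3, the mast cell carboxypeptidase, 228 and 212 against 26.1 and 25.9. Prg2, the eosinophil major basic protein, measured 272 and 140 against 6.62 and 7.15. Mcpt8, a basophil protease, was at 9.29 and 8.5 RPKM in GMP and 0.0285 and 0.109 in XMP. All 4 were thus much lower in both XMP libraries. The 5 that rose were Gata2 (35.9 and 50.6 to 161 and 159 RPKM), a factor shared with stem and megakaryocyte progenitors, Itga2 (0.518 and 0.576 to 7.29 and 6.4), the platelet collagen integrin, Il1rl1, the interleukin-33 receptor, and the leukotriene enzymes Alox5 and Ltc4s. Il1rl1 lost its call without either GMP library or XMP replicate 2 (adjusted p up to 0.107), and Ltc4s without GMP replicate 2 (0.0701). Fcer1a, the chain that defines the mast cell and basophil IgE receptor, stayed at or below 0.425 RPKM in all 4 libraries.

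Receptors of the platelet surface had the largest share of members higher in XMP among the 20 lists, 85.2% of those tested. Over all genes tested this share was 9.83%. Of 30 platelet and megakaryocyte receptors listed, 27 passed the filter and 23 of these were higher in XMP, none lower (1 at an unadjusted p under 0.05 in limma, 0 by voom), with a median log2 difference of 2.39. The glycoprotein Ib-IX-V complex, which binds von Willebrand factor, rose in each of its 4 subunits. Gp9 measured 3.48 and 6.52 RPKM in GMP and 140 and 107 in XMP, 24.8-fold higher (4.41 ± 0.27, adjusted p = 4.13e-07). Gp1ba measured 1.81 and 2.31 against 38.4 and 29.3, Gp5 10.3 and 12.5 against 162 and 129, and Gp1bb 0.0611 and 0.343 against 12.7 and 5.87. For each subunit both XMP libraries stood above both GMP libraries, and for Gp9, Gp1ba and Gp5 also above both MEP libraries of the same genotype (52.6 and 41.8, 22.2 and 20.9, and 89.9 and 78.6 RPKM).

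The promoters of Gp9 and Gp1ba, and that of the platelet chemokine gene Pf4 described below, are shown because they belong to receptors and cargo that rose together. They are given as above, from chr6:87777820-87778069 for Gp9, chr11:70638872-70639121 for Gp1ba and chr5:90772185-90772434 for Pf4, all on the plus strand. Capitals mark, on either strand, the GATA core GATAA and the PU.1, RUNX and C/EBP motifs named above. The GATA core was added after these sequences were seen, and each match to the longer AGATAA holds it.
Gp9: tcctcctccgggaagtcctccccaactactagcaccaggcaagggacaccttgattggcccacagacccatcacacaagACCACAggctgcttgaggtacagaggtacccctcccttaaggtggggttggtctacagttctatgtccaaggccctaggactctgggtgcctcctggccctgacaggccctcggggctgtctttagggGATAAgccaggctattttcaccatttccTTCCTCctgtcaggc
Gp1ba: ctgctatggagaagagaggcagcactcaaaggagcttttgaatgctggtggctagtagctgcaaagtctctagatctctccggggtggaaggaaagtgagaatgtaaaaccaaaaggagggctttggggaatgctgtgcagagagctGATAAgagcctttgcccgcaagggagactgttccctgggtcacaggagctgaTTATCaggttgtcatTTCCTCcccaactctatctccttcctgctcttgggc
Pf4: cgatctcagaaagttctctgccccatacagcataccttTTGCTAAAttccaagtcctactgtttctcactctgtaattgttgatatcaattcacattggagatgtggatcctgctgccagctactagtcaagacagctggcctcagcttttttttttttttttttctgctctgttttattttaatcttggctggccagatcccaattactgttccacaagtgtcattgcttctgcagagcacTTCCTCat

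Gp9 and Gp1ba hold GATAA at 43 bases and at 51 and 103 bases before the start, and neither the GATA core nor the RUNX core occurs in these 250 bases of Pf4. Like the granule proteases above, Gp9, Gp1ba and Pf4 each hold a GAGGAA match, at 15, 36 and 8 bases. Gp9 also holds a RUNX match at 171 bases and Pf4 a C/EBP match at 212. Of the 27 receptor genes tested, 21 had a promoter, and AGATAA was present in 28.6% of them against 6.22% of promoters of all genes tested, GATAA in 42.9% against 15.8%, and TTGCNNAA in 4.76% against 8.04%. GAGGAA was present in 38.1% of receptor promoters, also above the 26.7% of all genes tested. TGTGGT was present in 9.52% of receptor promoters, against 12.3% of all genes tested. Over the 747 promoters found for the 1035 genes higher in XMP, AGATAA was present in 9.10% and TGTGGT in 13.7%. GATAA differed little between the genes higher and lower in XMP, at 17.8% and 17.3% of their promoters.

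The integrin and thrombin receptors of platelets rose as well. Itgb3, the partner of CD41 in the fibrinogen receptor, measured 6.57 and 10.6 RPKM in GMP and 98.4 and 74.8 in XMP. F2r, the thrombin receptor PAR1, measured 34.2 and 38.4 against 325 and 306 (3.09 ± 0.17, adjusted p = 2.3e-07), and P2ry1, an ADP receptor, 1.78 and 2.94 against 39.5 and 30.2. Treml1, a receptor of the platelet granule membrane, and Clec1b, the podoplanin receptor, rose 17.6-fold and 17.9-fold. Of the 4 receptors not called, Selp, P-selectin, was at 21.2 and 16.6 RPKM in GMP and 11.6 and 12.2 in XMP (adjusted p = 0.0766), and Icam2 at 40.6 and 40.3 against 35.8 and 38.2 (adjusted p = 0.771). The second ADP receptor, P2ry12, and Cd36 were at most 0.0204 and 0.256 RPKM in any of the 4 libraries.

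Platelet granule cargo gave 14 higher and 2 lower of 22 tested members (of 29 listed), with a median of 1.12. The lower share, 9.09%, was near the 9.82% of all genes tested. Pf4, platelet factor 4, measured 2.63 and 11.1 RPKM in GMP and 349 and 157 in XMP (5.15 ± 0.48, adjusted p = 1.23e-05), with 220 and 158 in Runx1-deleted MEP. Thbs1, thrombospondin 1, measured 0.876 and 5.17 against 182 and 140 (5.56 ± 0.43), and Vwf, von Willebrand factor, 0.335 and 1.05 against 34.9 and 26.3 (4.24 ± 0.30). Nrgn and Pdgfb, the latter a platelet growth factor, differed by 3.67 ± 0.37 and 3.30 ± 0.18 on the log2 scale. Ppbp, the platelet basic protein and a late platelet transcript, rose less, from 1.3 and 10.6 to 48.6 and 17.5 RPKM (2.55 ± 0.74, adjusted p = 0.0307). Its call was lost in 5 of 24 alternatives, among them without GMP replicate 1 (1.38, adjusted p = 0.318) and without XMP replicate 1 (1.84, adjusted p = 0.224). Srgn, the proteoglycan core of granules in many blood cells, was abundant in both, at 606 and 576 against 646 and 619 RPKM (adjusted p = 0.871). Of the paired secretion GTPases, Rab27b rose from 1.32 and 1.75 to 28.6 and 18.2 RPKM while Rab27a fell from 8.79 and 8.25 to 2.98 and 2.73. Ccl5, the other member that fell, lost its call in 11 alternatives, among them without GMP replicate 2 or XMP replicate 2 (adjusted p up to 0.366).

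Among cytoskeleton and signalling genes of megakaryocytes, 22 of 35 tested members (of 40 listed) were higher and 3 lower, with a median of 1.37. The lower share, 8.57%, was near the 9.82% of all genes tested. Tuba8, an alpha tubulin, measured 10.8 and 10.9 RPKM in GMP and 95.7 and 95.2 in XMP (3.03 ± 0.15, adjusted p = 1.46e-07). Tubb1, the beta tubulin of the platelet marginal band, rose from 0.544 and 2.85 to 18.3 and 13.3. Gucy1b3 and Gucy1a3, the 2 subunits of the soluble guanylate cyclase that makes cyclic GMP, measured 0.196 and 0.627 and 0.110 and 0.354 RPKM in GMP against 25.4 and 13.6 and 12.4 and 5.86 in XMP. Pde5a, which breaks down cyclic GMP, measured 1.27 and 1.62 against 33.8 and 31.0. Mrvi1, a gene outside the list that was among the 15 largest rises, measured 0.232 and 0.646 against 36.6 and 37.0.

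Other signalling members showed graded rises from higher starting levels. Plek, pleckstrin, measured 37.8 and 42.1 RPKM in GMP and 274 and 232 in XMP, Rap1b, the GTPase of integrin activation, 78.8 and 83.8 against 564 and 414, and Fermt3, kindlin-3, 134 and 154 against 466 and 414. The eicosanoid enzymes Alox12 and Tbxas1 rose by 3.81 ± 0.35 and 1.96 ± 0.17 on the log2 scale, while Ptgs1, cyclooxygenase 1, was at 28.2 and 28.9 against 33.1 and 31.5 RPKM (adjusted p = 0.622). Myh10, a non-muscle myosin known to be repressed by RUNX1 as megakaryocytes mature, was at 0.136 and 0.220 RPKM in GMP, 2.18 and 1.01 in XMP and 14.8 and 6.98 in Runx1-deleted MEP, and its call (adjusted p = 0.0461) was lost in 9 alternatives, among them without either GMP library or XMP replicate 1 (up to 0.309). The 3 that fell were the calcium channel Orai1 (19.1 and 22.6 to 10.3 and 8.77 RPKM, adjusted p = 0.0016), the scaffold protein Mpp1 and the actin cross-linker Flna. Flna lost its call in 14 alternatives, among them without any 1 of the 4 libraries (adjusted p up to 0.218), and Mpp1 without either GMP library or XMP replicate 2 (up to 0.0751).

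Of 27 tested transcription factors of megakaryocytes and erythroid cells (30 listed), 14 were higher and 1 lower in XMP, with a median of 0.67. These shares were 51.9% and 3.7%, against 9.83% higher and 9.82% lower of all genes tested. Gata1, the central factor of both lineages, measured 7.94 and 11 RPKM in GMP and 123 and 105 in XMP (3.47 ± 0.22, adjusted p = 5.41e-07), with 127 and 120 in Runx1-deleted MEP. Its cofactor Zfpm1 (FOG1) measured 15.8 and 22.5 against 180 and 124, and Gfi1b, the counterpart of Gfi1 in erythroid and megakaryocyte cells, 8.48 and 15.5 against 91.6 and 62.6. Klf1, the erythroid Kruppel-like factor, also rose, from 1.60 and 2.62 to 33.0 and 25.6, but stayed below the 153 and 112 of Runx1-deleted MEP. The difference between XMP and MEP of the same genotype was not tested. Of the 12 factors not called, Nfe2, which drives platelet formation, was at 121 and 148 against 216 and 210 RPKM (adjusted p = 0.0552, under 0.05 in 9 of 24 alternatives) and Cbfb at 42.7 and 46.2 against 47.5 and 38.5 (adjusted p = 0.901). Of the other RUNX genes, Runx3 rose from 35.9 and 41.7 to 71.7 and 70.0 RPKM (adjusted p = 0.00317) and Runx2 fell from 18.9 and 20.0 to 9.79 and 10.5 (adjusted p = 0.0185). Runx3 lost its call only without GMP replicate 1 (adjusted p = 0.0576), and Runx2 without any 1 of the 4 libraries and without the filter (up to 0.126).

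Erythroid genes rose in part, with 25 of 42 tested members (of 50 listed) higher, none lower (1 at an unadjusted p under 0.05 in limma, 0 by voom) and a median of 1.03. The higher share was 59.5%, against 9.83% of all genes tested. The count of higher members ran from 11 with a mean of at least 5 RPKM to 36 with group weights. Aqp1, the water channel of red cells, measured 5.71 and 10.02 RPKM in GMP and 272 and 209 in XMP (4.8 ± 0.25, adjusted p = 1.79e-07), with 624 and 601 in Runx1-deleted MEP. Car1, carbonic anhydrase 1, measured 0.496 and 1.67 against 46.2 and 16.2, with 334 and 375 in MEP. Epor, the erythropoietin receptor, measured 0.219 and 0.296 against 6.18 and 6.12, with 13.8 and 12.7 in MEP. For these genes, and for Tspo2, Rhag and Ermap, both XMP libraries lay between the GMP and the MEP libraries. Not every called member did so. Tmod1 was at 4.05 and 3.84 RPKM in XMP, above the 1.44 and 1.42 of Runx1-deleted MEP. Adult globin transcripts were abundant in both groups and differed between libraries of 1 group: Beta-s, a beta globin gene, stood at 229 and 376 RPKM in GMP and 872 and 445 in XMP (1.08 ± 0.34, adjusted p = 0.0456), and Hba-a1 at 82.9 and 152 against 321 and 154 (adjusted p = 0.084). Like Tmod1 and unlike the other genes above, both globins stood higher in each XMP library than in MEP of the same genotype. In Runx1-deleted MEP, Beta-s was at 222 and 191 RPKM and Hba-a1 at 64.8 and 57.4, a difference that was not tested. The call of Beta-s was lost in 14 alternatives, and its difference fell to 0.73 without GMP replicate 1 and 0.6 without XMP replicate 1. The part of erythroid cells or free RNA in these values was not tested.

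**Figure D3:**
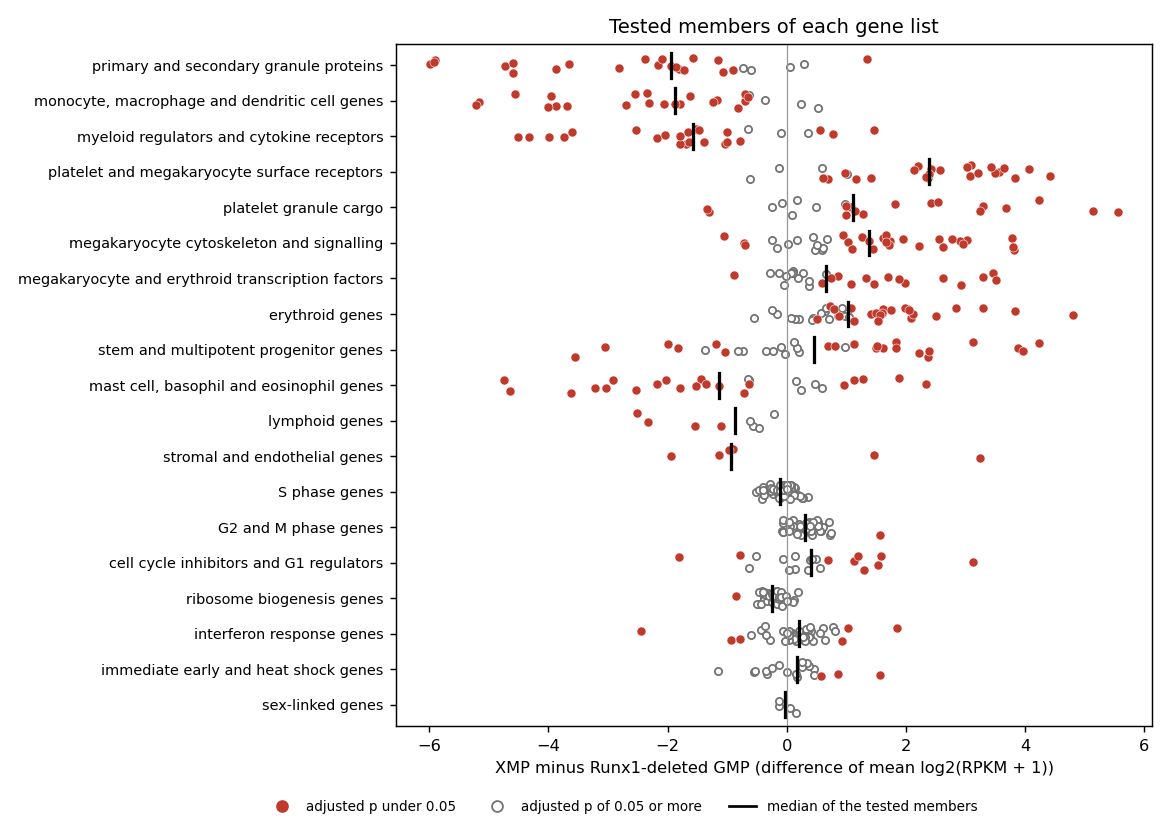
Difference of XMP minus Runx1-deleted GMP in mean log2(RPKM + 1) for the tested members of 19 gene lists, 1 point per gene, filled where the adjusted p is under 0.05, with a black bar at the median. The myeloid lists lie left of 0 (medians −1.95, −1.87 and −1.58), platelet receptors to the right (2.39), and S phase and ribosome biogenesis genes close to 0 (−0.11 and −0.24).

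Stem cell genes split into both directions, with 15 of 32 tested members (of 43 listed) higher, 6 lower and a median of 0.45. These shares were 46.9% and 18.8%, against 9.83% higher and 9.82% lower of all genes tested. Meis1, a homeobox factor of stem cells and megakaryocytes, measured 29.4 and 30.9 RPKM in GMP and 113 and 106 in XMP (1.83 ± 0.18, adjusted p = 2.14e-05), while Runx1-deleted MEP held 35 and 31.9. Mycn measured 3.67 and 5.50 against 49.9 and 44.7, and Pdzk1ip1, a gene active in stem cells and megakaryocyte progenitors, 1.81 and 2.80 against 54.5 and 45.8. Tek, the angiopoietin receptor, rose from 7.06 and 6.69 to 29.2 and 24.9. Those that fell included Satb1, a chromatin organiser of lymphoid-primed cells, from 11.9 and 14.8 to 0.799 and 0.676 RPKM, Ly6a, which encodes Sca-1, from 8.97 and 10.5 to 2.22 and 1.27, and Ifitm1 from 47.4 and 40.5 to 13.1 and 10.3. Hlf and Hoxa9, both stem cell factors, were lower in each XMP library but not called (7.74 and 8.64 against 2.94 and 2.23, adjusted p = 0.0638, and 9.88 and 7.62 against 3.52 and 5.68, adjusted p = 0.107). Several risers, such as Vwf and Slamf1, are counted here as well as among the platelet genes or the gate.

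The largest rises outside the lists included genes known from megakaryocytes and others with no assigned role here. Gm15915 had the largest, from 1.18 and 2.17 RPKM in GMP to 259 and 263 in XMP (6.64 ± 0.30, adjusted p = 8.69e-08), with 278 and 350 in Runx1-deleted MEP. Ache, the acetylcholinesterase long used to stain rodent megakaryocytes, measured 0.534 and 1.55 against 70.3 and 83.6. Slc35d3, needed for platelet dense granules, measured 2.56 and 3.38 against 91.3 and 110, and Sdpr, a component of caveolae, 0.0358 and 0.305 against 44.6 and 38.1. XMP stood above Runx1-deleted MEP for Ache, Slc35d3 and Sdpr. Samd14 rose 25.8-fold, Mfsd2b, a sphingosine-1-phosphate exporter of red cells and platelets, 25.4-fold. Mtss1l and Cdc42ep5 rose by 4.79 ± 0.26 and 4.18 ± 0.26 on the log2 scale. Among the largest falls, Hk3, a hexokinase of myeloid cells, went from 122 and 139 to 2.5 and 2.05 RPKM, Emb from 110 and 124 to 3.01 and 1.71, and Clec12a, a myeloid lectin receptor, from 59.8 and 61.2 to 1.82 and 1.40.

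Few genes of cell division and growth were called. None of 43 S phase genes was (median −0.11), with 0 at an unadjusted p under 0.05 in limma and 0 called by voom, and of 40 G2 and M phase genes Cdc25b alone was, from 9.57 and 10.5 to 33.7 and 30.1 RPKM (median of the list 0.30; 5 higher at an unadjusted p under 0.05, 1 by voom and up to 9 over the alternatives). Of 35 ribosome biogenesis genes, 1 was lower, Rrp1b (adjusted p = 0.0145, up to 0.101 and lost without any 1 of the 4 libraries), with a median of −0.24 and up to 8 lower over the alternatives. Regulators of the G1 phase moved more on the higher side, with 7 higher and 2 lower of 20 tested (6 to 11 and 1 to 4 over the alternatives). Their higher share lay above the 9.83% of all genes tested, while their lower share was near the 9.82% of all genes tested. Ccnd3 rose from 48.8 and 67.6 to 165 and 124 RPKM and Ccnd1 fell from 6.62 and 6.95 to 1.21 and 1.25. The inhibitors Cdkn2d (8.34 and 9.16 to 29.6 and 26.6) and Cdkn2a (0.497 and 0.267 to 3.39 and 2.60) rose with Rb1, whereas Myc fell from 152 and 181 to 93.2 and 99.2 (adjusted p = 0.0328, up to 0.24 and lost without any 1 of the 4 libraries or the filter). Myb, needed for progenitor growth and known to restrain megakaryocyte output, was at 202 and 191 against 119 and 134 RPKM (adjusted p = 0.0598). It was called in 9 of 24 alternatives, among them with the replicate number as a block (adjusted p = 0.0338). Of 43 interferon response genes, 3 were higher (Isg20, Rsad2 and Usp18) and 3 lower (Gbp3, Mx1 and Bst2), which is 6.98% in either direction against 9.83% and 9.82% of all genes. These counts were not stable, with 12 higher and 4 lower at an unadjusted p under 0.05, 5 and 3 by voom, 8 and 4 without either wild-type MEP library, and 2 to 12 and 2 to 6 over the alternatives. Usp18 lost its call without GMP replicate 1 or XMP replicate 1 (adjusted p up to 0.113), and Bst2 in 8 alternatives, among them without any 1 of the 4 libraries (up to 0.236).

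Defining markers of stromal, endothelial and lymphoid cells were close to 0, while some other members of these lists were not. Of 24 stromal and endothelial genes, 18 did not pass the filter, among them Col1a1 at most 0.0153 RPKM, Cdh5 at most 0.0959 and Cxcl12 at most 0.0575 in any of the 4 libraries. Of the 6 tested, 4 were lower (66.7%) and 2 higher (33.3%), against 9.82% and 9.83% of all genes tested. The lower ones included Pdgfrb (8.89 and 7.07 to 1.16 and 1.51 RPKM) and Pecam1 (40.6 and 37.9 to 21.0 and 20.0). The higher ones were Kdr (1.22 and 1.49 to 24.1 and 18.9), the receptor for vascular endothelial growth factor, and Plvap. The summed level of the list was 62.6 and 57.2 RPKM in GMP and 59.6 and 49.95 in XMP. Of the lymphoid markers, Cd79a was at most 0.467 and Cd3e at most 0.0320 RPKM. Cd79b, the partner of Cd79a in the B cell receptor, was nonetheless at 23.1 and 25.6 RPKM in GMP and 17.8 and 14.5 in XMP (adjusted p = 0.0568), and Gimap6 at 22.9 and 30.1 against 20.2 and 17.5 (adjusted p = 0.162). The lymphoid list summed to 192 and 182.5 RPKM in GMP and 78.95 and 83.6 in XMP. Of its 8 members tested, 4 were lower (1 to 7 over the alternatives), among them Dntt (6.82 and 7.25 to 0.639 and 0.549), the terminal transferase of early lymphoid cells, Notch1 (6.21 and 7.77 to 0.400 and 0.377) and Nkg7 (118 and 86.6 to 27.9 and 41.5).

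The libraries of a group differed along the library numbers in the column headers, and the replicate numbers of the labels cross them. Runx1-deleted GMP replicate 2, MEP replicate 1 and XMP replicate 1 carry numbers 27 to 29, and GMP replicate 1, MEP replicate 2 and XMP replicate 2 carry 32 to 34. Hspa1b, a heat shock gene, was at 4.21, 7.35 and 7.14 RPKM in the first 3 and at 0.201, 0.143 and 0.0898 in the others. Xist was at 58.2, 54.6 and 59.99 RPKM in the first 3 and at 101.8, 110 and 124 in the others, and the Y-linked Eif2s3y at 4.97, 3.52 and 4.46 against 9.61, 7.57 and 8.61, so both were read in each of the 6 libraries. Some megakaryocyte transcripts varied the same way: Pf4 in GMP was 11.1 RPKM in the library of the lower number and 2.63 in the other, and Ppbp 10.6 and 1.3. Clca1, among the 15 largest rises, varied in the opposite direction, at 2.81 and 5.97 RPKM in GMP and 71.4 and 174 in XMP.

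Differences within library numbers are given for 7 genes as a description of their size. The 2 groups did not overlap for any of these genes, so the direction was fixed in advance. For Pf4 they were 4.85 on the log2 scale between XMP replicate 1 and GMP replicate 2 and 5.44 between XMP replicate 2 and GMP replicate 1. For Thbs1 they were 4.89 and 6.23, for Gp9 4.23 and 4.59, for Ppbp 2.09 and 3.01, and for Tubb1 2.33 and 3.21. Mpo differed by −5.87 and −6.09 and Elane by −5.75 and −6.07. The 2 values of Thbs1 lay farther apart than those of Mpo or Elane. XMP were also split over sequencing lanes, with replicate 1 on lane 5, as both GMP libraries, and replicate 2 on lane 4. XMP replicate 1 against both GMP libraries, fitted over the lane 5 libraries, gave 2189 called genes (1153 higher and 1036 lower).

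**Figure D4:**
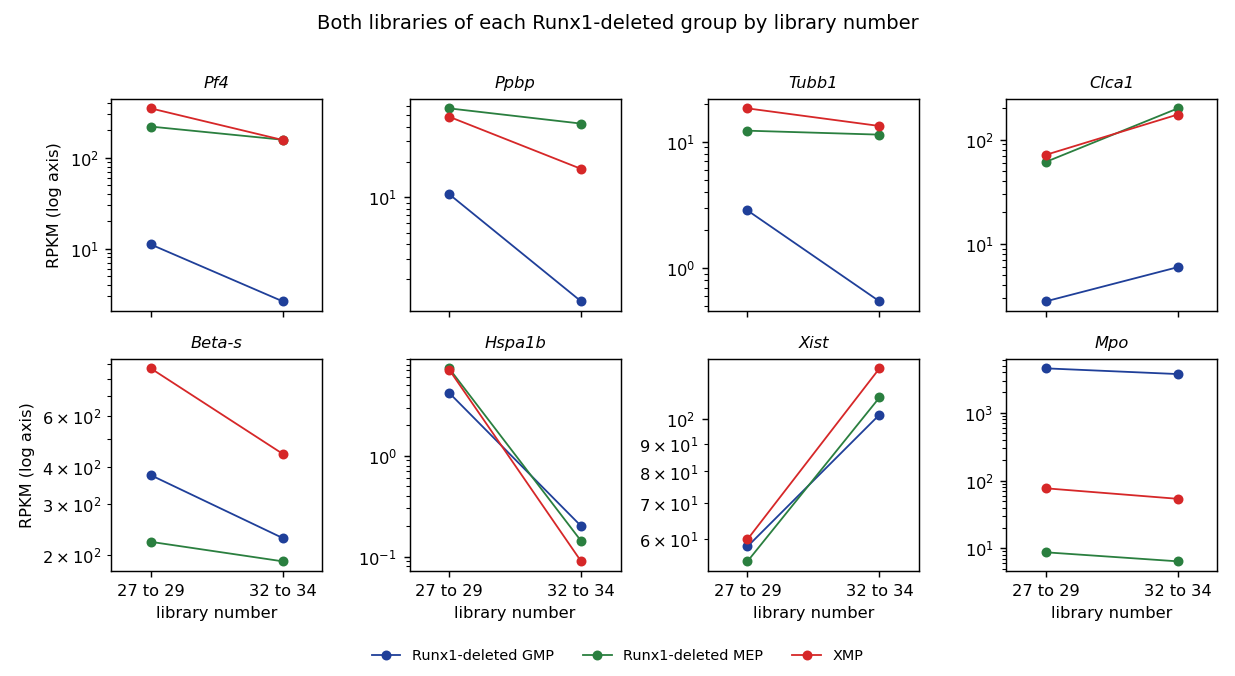
Level in RPKM (log axes, 1 per gene) of 8 genes in the 6 Runx1-deleted libraries, placed by library number (27 to 29 or 32 to 34), with lines joining the 2 libraries of a group. Hspa1b and Xist change with the library number alike in the 3 groups, Pf4, Ppbp and Tubb1 vary most in GMP, and Mpo keeps XMP and GMP far apart in both columns.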

How the data were processed

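The data were RNA-seq of 10 libraries from sorted mouse bone-marrow progenitors in 5 groups of 2, used as the authors' deposited table. The authors gave RPKM for each gene and library. A p-value of Baggerley's test for pairs of groups and its FDR-corrected form are deposited in further columns, as named in their headers. RNA extraction used peqGOLD TriFast and library preparation a TruSeq or a NEBNext kit, per the labels' protocols, which do not say which library had which kit. Reads were placed on mm9, per the submitters' processing notes. For the aligner, the counter and its strand setting, the sources used here give no name. Reads of overlapping, antisense or near-identical genes, such as globin and histocompatibility genes, may therefore be shared between them. Groups came from the sample labels, and lanes and library numbers from the column headers.

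Depth was recovered from the steps between RPKM values. All values were whole reads within 0.01 read for 19335 genes and not for 1, and 3904 genes were at 0 throughout. Library totals ranged from 20.8 to 54.9 M reads. They were 41.9 and 43.6 M for XMP against 54.9 and 46.1 M for the Runx1-deleted GMP. A single read in a gene of 1 kb therefore equals 0.0182 to 0.048 RPKM, and 75.3% to 83.3% of reads lay in genes.

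Values of genes that passed the filter (1 RPKM or more in 2 or more of the 4 libraries compared) were fitted as log2(RPKM + 1). The fit used lmFit and eBayes (with trend) of limma 3.58.1 in R 4.3.3 over the 10 libraries, with a mean for each of 5 groups, which leaves 5 residual degrees of freedom. A Benjamini-Hochberg adjusted p under 0.05 was called. On simulated data of 10532 genes, 76 of 100 genes changed 2-fold and 99 of 100 changed 4-fold were called, with 11 false calls. The changed genes had a mean of 5 RPKM or more, no other gene changed, and simulated libraries varied independently. The simulated spread was drawn around a smooth trend of spread on level and scaled down by a fixed factor. In the data, same-numbered XMP and Runx1-deleted MEP libraries deviated together (r = 0.785 across genes), so these counts may not hold for the data. Gene lists were 20 sets of 622 genes, of which 9 were matched by older symbols and 5 were unmatched. They are described by counts and medians, without a set test. The members and lists were chosen with earlier results of these data known. Named genes were the 15 largest rises and falls among called genes without overlap and with a mean of 5 RPKM or more, up to 4 called members of each list in each direction, up to 2 uncalled members of highest level, the sort and cell type markers, and the RUNX genes with Cbfb. Some genes of the lists are not reported here by name. The text prints a selection, with further list members chosen after their values were seen. Promoters were matched by symbol to RefSeq (GRCm38.p6) for 7658 of the 10532 genes. The closing section gives 24 alternatives to the fit. No per-sample column of the table was left unused.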

Additional observations from a re-analysis of the deposited data

How the results depend on the processing

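In 24 alternatives, 59.7% to 100% of the 2069 calls were kept, and each shared call kept its sign. The count rose to 3163 (1699 higher) with the 4 libraries alone and to 3566 (1955 higher and 1611 lower) with group weights. A mean of at least 5 RPKM, which tests fewer genes, gave 1235 (652 higher and 583 lower). Leaving out each library gave 1363 to 2708 calls (595 to 1436 higher, 717 to 1272 lower); the lowest count came without Runx1-deleted GMP replicate 1, and a lone library was then assumed to vary like the other groups. The replicate block gave 2049 calls (1005 higher and 1044 lower). Crossing the numbers in the replicate block, an alternative added after seeing the data because same-numbered XMP and Runx1-deleted GMP libraries deviated in opposite directions (r = −0.482 across genes), gave 2292. Voom on recovered reads, also added, gave 2056. The cause of these changes was not tested beyond the number of genes or libraries.

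Of 128 called genes named in the text, Tmod1 not counted, 111 were called in every alternative that tested them, 17 were not in some, and none changed sign. Of 22 uncalled ones, 9 (Tgfbi, Selp, Nfe2, Hba-a1, Hlf, Hoxa9, Myb, Cd79b and Gimap6) were called in some. Signs changed in 7 uncalled genes. With lane 5 alone, the log2 difference was −0.15 for Fcgr2b, 0.1 for Cbfb and −0.36 for Xist, and with voom −0.11 for Hspa1b. Leaving out single libraries moved Fcgr2b from −0.15 to 0.19, Kit from −0.17 to 0.1, Cbfb from −0.2 to 0.1, Xist from −0.36 to 0.68, Eif2s3y from −0.55 to 0.28, Hspa1b from −1.2 to 1.7 and Ngp from −0.23 to 0.34. List medians changed sign with a mean of at least 5 RPKM for stromal and endothelial (1.17), immediate early and heat shock (−0.06) and sex-linked genes (0.01), with lane 5 alone for S phase genes (0.07), and without single libraries for S phase (−0.27 to 0.07) and sex-linked genes (−0.36 to 0.3). Removing a trend on gene length gave 2884 calls (1377 higher and 1507 lower). Depth limits mainly low genes, since 1 read in 1 kb equals up to 0.048 RPKM.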
